A study of Homo sapiens with 34 samples.

Results

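The regions described here are those bound by antibodies against SMARCA1 and OGG1 in hydrogen peroxide-treated U2OS cells that carried a control siRNA. They come from 4 of the 34 CUT&RUN libraries of the study, 2 replicates for each antibody, and were taken from the stringent region list of each library. On chromosomes 1 to 22 and X these lists held 359703 regions, of 891019 in the 18 libraries read. U2OS is an established human osteosarcoma line. The cells had received the siRNA siGl3 for 72 h, passed a double-thymidine block with a 3 h release, and were then given 5 mM H2O2 for 30 min. CUT&RUN uses an antibody-tethered nuclease to release the DNA around a chromatin protein. Replicates 1 and 2 of each antibody carry the batch numbers 1 and 2. The SMARCA1 antibody came from EpiCypher and the OGG1 antibody from Invitrogen. Libraries with the same antibodies from other cells serve for comparison, namely siGl3 cells without H2O2 (non-treated), siOrc6 cells without H2O2, and siOrc6 cells with H2O2, siOrc6 being an siRNA against the replication-origin protein Orc6. Orc6 libraries of the siGl3 H2O2 cells were read as well. No source says that replicates were separate cultures, so the spread between them may be technical, and an IgG library of these cells was not analysed here.

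SMARCA1 is an ATPase of the ISWI family, whose complexes slide and space nucleosomes. OGG1 is the glycosylase that removes 8-oxoguanine, a common oxidation product of guanine, as the first step of base excision repair. H2O2 oxidises guanine, and repair of such lesions takes place on DNA that is wrapped in nucleosomes. The comparison asks where the remodeller and the glycosylase were found together in peroxide-treated cells and where only one of them was.

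In the full lists most SMARCA1 regions lay inside OGG1 regions, whereas most OGG1 regions held no SMARCA1. At gene level this gave genes with both antibodies, genes with OGG1 alone and almost none with SMARCA1 alone. A gene counts here as occupied by a library when a region touches the 1 kb on either side of one of its ends. The promoters of 4 genes show the classes with OGG1 at sequence level. They are among the strongest genes of both classes by total signal, picked where the promoter fell in the same class and printed as 250 bases before the RefSeq start (GRCh38.p14), 5′ to 3′ on the gene's strand. Capitals mark CG dinucleotides, the sites of DNA methylation in human cells. The first pair, TNRC18 (chr7:5423835-5424084, minus strand) and TPM1 (chr15:63048239-63048488, plus strand), lay under regions of all 4 libraries.
TNRC18: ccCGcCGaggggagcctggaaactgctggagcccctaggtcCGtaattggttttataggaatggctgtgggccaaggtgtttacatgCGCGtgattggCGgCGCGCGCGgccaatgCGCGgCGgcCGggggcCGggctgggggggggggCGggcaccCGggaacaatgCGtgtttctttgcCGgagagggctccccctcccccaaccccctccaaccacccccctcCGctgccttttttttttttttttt
TPM1: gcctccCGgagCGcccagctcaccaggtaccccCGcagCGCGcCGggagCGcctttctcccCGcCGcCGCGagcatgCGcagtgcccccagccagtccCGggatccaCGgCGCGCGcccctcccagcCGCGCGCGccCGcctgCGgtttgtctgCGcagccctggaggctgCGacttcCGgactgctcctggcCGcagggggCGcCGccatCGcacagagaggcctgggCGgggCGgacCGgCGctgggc
MICALL2 (chr7:1459471-1459720, minus strand) and SEPTIN4 (chr17:58532061-58532310, minus strand) lay in OGG1 regions of both replicates and outside every SMARCA1 region.
MICALL2: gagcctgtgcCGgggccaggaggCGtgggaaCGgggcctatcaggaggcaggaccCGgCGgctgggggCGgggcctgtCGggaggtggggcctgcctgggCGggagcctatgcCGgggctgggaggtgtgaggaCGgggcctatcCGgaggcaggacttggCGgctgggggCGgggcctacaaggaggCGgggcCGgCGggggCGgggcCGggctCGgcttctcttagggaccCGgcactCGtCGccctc
SEPTIN4: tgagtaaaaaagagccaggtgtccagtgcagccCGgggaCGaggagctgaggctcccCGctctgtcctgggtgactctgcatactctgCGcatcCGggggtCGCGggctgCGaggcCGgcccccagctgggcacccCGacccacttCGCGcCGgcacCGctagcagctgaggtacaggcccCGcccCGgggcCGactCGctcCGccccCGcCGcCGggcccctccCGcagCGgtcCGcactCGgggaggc
The classes cannot be told apart by these CG counts, which were 20 in TNRC18, 34 in TPM1, 22 in MICALL2 and 26 in SEPTIN4.

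The regions at these promoters differed in scale. At TNRC18 the SMARCA1 regions were 6367 bp and 7654 bp wide, and the OGG1 regions over the same bases were 430701 bp and 527783 bp. At TPM1, which encodes a tropomyosin of actin filaments, SMARCA1 regions of 9485 bp and 10056 bp lay in OGG1 regions of 206700 bp and 169659 bp. MICALL2 lay in OGG1 regions of 277964 bp and 239085 bp, and a SMARCA1 region of replicate 2 began just beyond the 1 kb limit. No SMARCA1 region lay within 1 kb of the printed SEPTIN4 bases, which sat in OGG1 regions of 223314 bp and 255217 bp.

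SMARCA1 regions were fewer and narrower than OGG1 regions in both replicates. The SMARCA1 lists held 69927 and 47072 regions, and the OGG1 lists 132025 and 110679, in replicates 1 and 2. SMARCA1 covered 100.4 and 78.3 Mb, or 3.31% and 2.58% of the 3.03 Gb spanned. OGG1 covered 825.4 and 776.7 Mb, or 27.2% and 25.6%. The groups did not overlap in either measure, and OGG1 covered 8.96 times as many bases on average (801.1 ± 34.4 Mb against 89.4 ± 15.6 Mb, SD, n = 2 each). Median widths were 1270 and 1469 bp for SMARCA1 and 3349 and 3615 bp for OGG1. The widest SMARCA1 regions measured 13209 and 14611 bp, the widest OGG1 regions 431858 and 531462 bp. Regions over 10 kb made up 48.9% and 53.4% of the OGG1 bases and 0.11% and 0.10% of the SMARCA1 bases.

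With 2 libraries against 2, the exact two-sided permutation test cannot fall below p = 0.333, the value obtained for each of the 7 measures compared (adjusted p = 0.333). Permuting the antibody labels within all 4 cell conditions gave more arrangements. There OGG1 had more regions than SMARCA1 in 8 of 8 pairs, by 1.06 on the log2 scale on average (exact permutation test, two-sided p = 0.00154, the smallest possible, adjusted p = 0.0027). It also covered more bases and occupied more genes in 8 of 8 pairs, with the same p-values. Regions of OGG1 were wider in all 8 pairs too (exact permutation p = 0.00309, adjusted p = 0.00432). List lengths depend on sequencing depth and on the caller's threshold, and the depth is unknown here.

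The middle of the strongest stretch of a region, its summit, was used to place it. Of the SMARCA1 summits, 79.1% in replicate 1 and 85.2% in replicate 2 fell inside an OGG1 region of the same replicate number. Those OGG1 lists covered 27.2% and 25.6% of the span, so the shares were 2.90 and 3.32 times the covered share. SMARCA1 summits thus numbered 67.0 and 51.6 per Mb inside OGG1 regions and 6.63 and 3.09 per Mb outside, a 10.1-fold and 16.7-fold higher density inside. In the other direction 12.1% and 13.7% of OGG1 summits fell inside SMARCA1 regions, 3.64 and 5.28 times the share that SMARCA1 covered. SMARCA1 summits were concentrated in Orc6 regions of the same cells too, so the overlap was not particular to OGG1. Orc6 replicate 1 covered 11.2% of the span and held 58.3% and 69.2% of the summits of SMARCA1 replicates 1 and 2. Orc6 replicate 2 covered 13.2% and held 62.8% and 69.9%. With the replicate numbers crossed, 69.7% of SMARCA1 replicate 1 summits lay in OGG1 replicate 2 and 90.3% of SMARCA1 replicate 2 summits in OGG1 replicate 1. Nesting of SMARCA1 in OGG1 was present with either pairing of the full lists. Its direction depended on the bases covered. When each list was cut to its strongest regions with the bases of the smallest list, each covered 2.58% of the span. This left only 809 and 729 OGG1 regions. Then 16.9% and 16.6% of SMARCA1 summits lay in OGG1 regions, and 69.3% and 79.8% of OGG1 summits in SMARCA1 regions. These shares were all above the covered share. With lists cut to equal length, 73.6% and 76.8% of SMARCA1 summits lay in OGG1 regions, which covered 19.6% and 19.8% of the span.

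Replicates of 1 antibody give the scale for these shares. Only 27.8% of SMARCA1 replicate 1 summits lay in SMARCA1 replicate 2 regions, and 38.1% the other way, which is 10.7 and 11.5 times the covered share. OGG1 replicates shared 60.7% and 68.1% of their summits, 2.37 and 2.50 times the covered share. A SMARCA1 summit was thus more often inside an OGG1 region than inside a region of the other SMARCA1 replicate, while relative to the bases covered the order was the reverse.

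**Figure D1:**
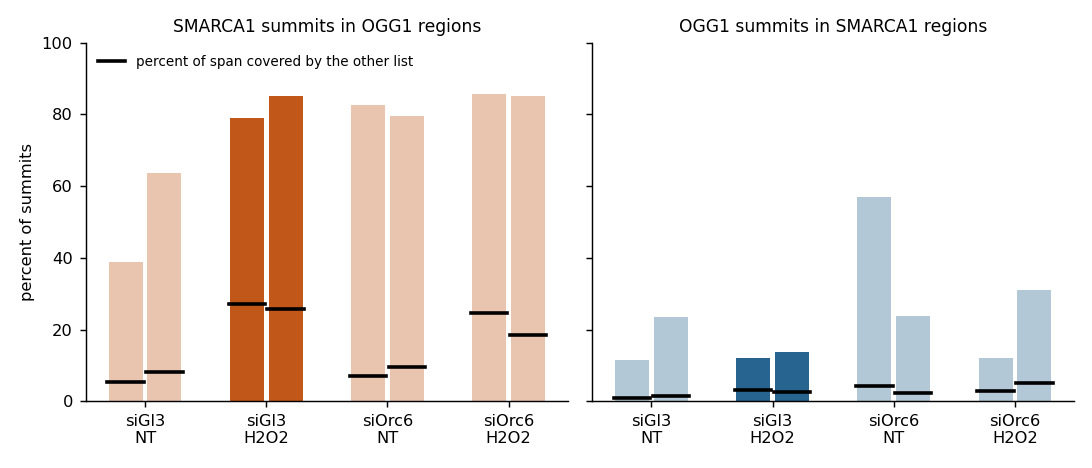
Percent of SMARCA1 summits inside OGG1 regions (left) and of OGG1 summits inside SMARCA1 regions (right), 1 bar for each pair with the same replicate number (replicate 1 on the left of each pair of bars), in 4 cell conditions; black lines give the percent of the span that the other list covers, and full colour marks siGl3 H2O2 cells. There the SMARCA1 bars reach 79.1% and 85.2% over covered shares of 27.2% and 25.6%, and the OGG1 bars 12.1% and 13.7%.

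Nesting of SMARCA1 in OGG1 was present in the other conditions too, at other levels of coverage. In non-treated siGl3 cells 39.0% and 63.8% of SMARCA1 summits lay in OGG1 regions, which covered 5.47% and 8.06% of the span, 7.13 and 7.91 times the covered share. In siOrc6 cells the shares were 82.6% and 79.7% without H2O2 and 85.7% and 85.0% with it. The siGl3 H2O2 shares of SMARCA1 summits were higher than in non-treated siGl3 cells in both replicates, and their ratios to the covered share were lower. Shares of OGG1 summits in SMARCA1 regions varied between replicates, at 11.4% and 23.5% in non-treated siGl3 cells. In siOrc6 cells they were 57.1% and 23.7% without H2O2 and 12.2% and 31.1% with it. The gap between the SMARCA1 and OGG1 directions was 69.3 percentage points in siGl3 H2O2 cells and 33.9 in non-treated siGl3 cells, and the difference of these gaps did not pass (exact permutation of treatment within antibody, two-sided p = 0.167, smallest possible 0.0556, adjusted p = 0.778).

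SMARCA1 regions were mostly enclosed whole. Of those with a summit in an OGG1 region of the same number, 89.1% and 89.4% lay entirely within it. Their summits were spread over the width of the OGG1 region, with 55.6% and 56.8% in its central 50% by length. Yet 23.3% and 30.4% lay within 500 bp of the OGG1 summit, a stretch that takes up 11.0% and 10.4% of these regions on average. A minority of OGG1 regions, 22.4% and 20.5%, held any SMARCA1 summit, and 465 and 298 of them held 10 or more. Single OGG1 regions held up to 94 and 100.

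SMARCA1 was denser in wider OGG1 regions. Regions of 30 kb and over, 2863 and 3412 in number, held 32.3% and 36.9% of the nested SMARCA1 summits in 19.4% and 24.9% of the OGG1 bases. Of these wide regions 96.0% and 90.3% held a SMARCA1 summit, against 9.53% and 8.13% of regions of 2 to 4 kb. Density per Mb, which does not grow with width by itself, was 112 and 76.7 in the widest class and 35.4 and 29.1 in regions of 2 to 4 kb. It was 42.3 and 41.3 in regions under 2 kb, so the rise began at 2 kb.

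**Figure D2:**
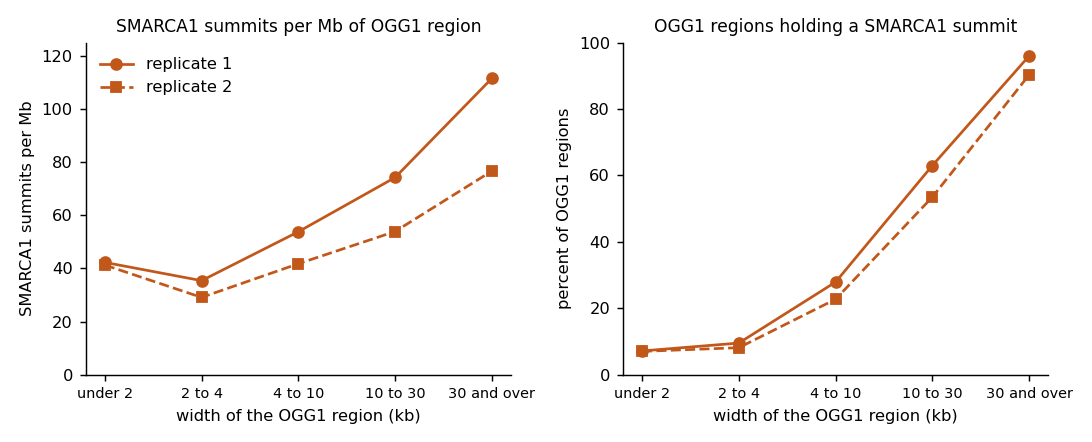
SMARCA1 summits per Mb of OGG1 region (left) and percent of OGG1 regions that hold a SMARCA1 summit (right) by width of the OGG1 region in kb, for pairs of replicates 1 (circles) and 2 (squares) in siGl3 H2O2 cells. Both quantities rise from regions of 2 to 4 kb (35.4 and 29.1 summits per Mb) to regions of 30 kb and over (112 and 76.7).

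Nesting followed signal in both lists. Ranked by the maximum signal within their own list, 65.6% and 77.1% of the weakest quintile of SMARCA1 regions were nested, and 92.6% and 94.9% of the strongest. For OGG1 the share of summits in SMARCA1 regions ran from 2.40% and 1.43% in the weakest quintile to 35.5% and 48.0% in the strongest. Maximum signal takes few distinct values, so the quintiles are uneven in size. SMARCA1 summits outside OGG1 were mostly near it, at a median of 2111 and 1990 bp from the next OGG1 region, and 6.02% and 6.30% of them were over 100 kb away.

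Overlapping regions of the 4 lists were joined into 127583 loci. All 4 libraries met in 13547 of them, the shared loci, or 10.6%. OGG1 in both replicates without SMARCA1 made up 34013 loci, 26.7%, and SMARCA1 in both without OGG1 made up 325, or 0.255%. Of 14616 loci with SMARCA1 in both replicates, 14291 held OGG1 in at least one. Shared loci were broad, with a median of 18735 bp, and together covered 475.9 Mb. OGG1-only loci had a median width of 5247 bp and SMARCA1-only loci of 1753 bp. With only 1 pair of libraries, shared loci numbered 31886 in replicate 1 and 23919 in replicate 2, OGG1-only loci 99373 and 86318, and SMARCA1-only loci 10831 and 4957. With lists cut to equal covered bases the order turned, with 382 shared, 13807 SMARCA1-only and 0 OGG1-only loci. A wider locus meets more regions by its width alone, so class and width are not independent.

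The classes differed in place. Shared loci touched a gene end in 47.7% of cases, OGG1-only loci in 13.4% and SMARCA1-only loci in 2.15%. SMARCA1-only loci were intergenic in 69.5% of cases and shared loci in 28.3%. Summits, which do not depend on width, showed the same order. At the shared loci 12.3% and 16.3% of SMARCA1 summits were within 1 kb of a gene end, and at SMARCA1-only loci 1.53% and 1.23%. For OGG1 summits the shares were 15.1% and 15.8% at shared loci and 5.00% and 5.30% at OGG1-only loci. Windows around gene ends take up 2.39% of the span.

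Orc6, measured in the same cells and not used to define the classes, separated them too. Regions present in both Orc6 replicates covered 7.11% of the span. They held 64.0% and 66.5% of SMARCA1 summits at shared loci and 27.8% and 26.7% at SMARCA1-only loci. Among OGG1 summits they held 42.4% and 49.7% at shared loci and 5.06% and 5.37% at OGG1-only loci. OGG1-only loci were thus below the share covered in both Orc6 replicates, and the other classes above it. Taken singly, Orc6 replicate 1 covered 11.2% of the span and held 13.7% and 14.2% of OGG1 summits at OGG1-only loci. Replicate 2 covered 13.2% and held 14.2% and 14.7%, so each Orc6 library alone was above its covered share. The non-treated siGl3 SMARCA1 lists separated the OGG1 classes too. Regions in both (0.63% of the span) held 7.84% and 8.61% of OGG1 summits at shared loci, and 0.11% and 0.12% at OGG1-only loci.

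SMARCA1-only loci were not outside OGG1 in every condition. Of their SMARCA1 summits, 61.2% and 61.3% lay in an OGG1 region of siOrc6 H2O2 replicate 1, and 5.81% and 4.60% in one of replicate 2. Those lists covered 24.6% and 18.4% of the span. OGG1 in non-treated siGl3 cells held 1.22% and 1.53% of them in replicate 1 and none in replicate 2. The strongest SMARCA1-only locus was chr17:59850398-59860264, 9867 bp at one end of TUBD1, a tubulin gene, with mean percentile 97.5 by total signal. The next 4 were chr10:41863830-41867773 and chr1:143209568-143211220, which lay 706395 and 691165 bp from the nearest protein-coding gene, chr2:87824890-87825368 in RGPD2, and chr7:84082882-84086102 in SEMA3A, which encodes a secreted guidance factor. RGPD2 belongs to a family of near-identical copies, in which reads are hard to place. Further SMARCA1-only loci lay near those of chromosomes 10 and 1, such as chr10:41885591-41886792 and chr1:143258499-143259484. How well reads can be placed at loci far from genes was not tested.

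The strongest shared loci were very wide. On chromosome 22, chr22:26773026-27969295 held 191 and 183 SMARCA1 regions but 9 and 15 OGG1 regions, and it spans MN1, a transcriptional regulator gene, and PITPNB. On chromosome 7, chr7:5389205-5917330 held 91 and 86 SMARCA1 regions in 2 and 1 OGG1 regions, over TNRC18, FSCN1 and ACTB, the beta-actin gene. On chromosome 15, chr15:62671629-63700180 with TPM1 held 149 and 111 SMARCA1 and 14 and 30 OGG1 regions. The other two of the 5 strongest lay on chromosome 8, at ST3GAL1 with 79 and 73 SMARCA1 regions and at ARC with 76 and 79. Many narrow SMARCA1 regions therefore stood in a few very wide OGG1 regions. The strongest OGG1-only locus, chr15:73316270-73392207 at HCN4, a pacemaker channel gene, held 3 and 4 OGG1 regions.

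SMARCA1 regions were concentrated in parts of the genome. The 20 windows of 1 Mb with most SMARCA1 regions, of 2853, held 4.53% and 5.77% of all SMARCA1 regions and only 0.35% and 0.52% of OGG1 regions. OGG1 nonetheless covered 93.8% and 92.0% of their bases, in few and wide regions. These windows lay on chromosomes 7, 8, 14, 17 and 22. The first, on chromosome 8 from 123 to 124 Mb with ATAD2 and FBXO32, held 202 and 160 SMARCA1 regions against 13 and 40 of OGG1, which covered 98.3% and 92.9% of it. Its SMARCA1 counts in non-treated siGl3 cells were 34 and 35. Orc6 regions of siGl3 H2O2 cells covered 86.5% and 93.0% of this window. In each of the 20 windows Orc6 covered between 52.0% and 93.0% in either replicate, against 11.2% and 13.2% of the span. These windows were thus rich in Orc6 as well, and the reason was not tested. The window richest in OGG1 regions, on chromosome 10 from 14 to 15 Mb, held 129 and 110 of them and 37 and 22 of SMARCA1.

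Across all 2853 windows, counts of SMARCA1 replicates correlated at r = 0.95 (Spearman's rho 0.94) and of OGG1 replicates at r = 0.95 (rho 0.96). Between antibodies r was 0.43 to 0.51 and rho 0.72 to 0.79. These are descriptions across windows, which share mappability and gene content and are not independent.

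By chromosome, SMARCA1 was densest on 17 (40.9 and 32.7 regions per Mb) and 22 (39.3 and 34.1), and OGG1 on 19 (67.7 and 60.9). Chromosome X was lowest for both, at 1.84 and 1.65 for SMARCA1 and 9.92 and 9.24 for OGG1. OGG1 covered 51.0% and 52.0% of chromosome 17 and 3.49% and 3.79% of X. The ratio of OGG1 to SMARCA1 regions ran from 1.15 and 1.03 on chromosome 22 to 5.38 and 5.60 on X. Most SMARCA1 summits were nested on every chromosome, from 60.6% on X to 93.6% on 22 in replicate 1 and from 70.0% on 4 to 97.0% on 22 in replicate 2.

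**Figure D3:**
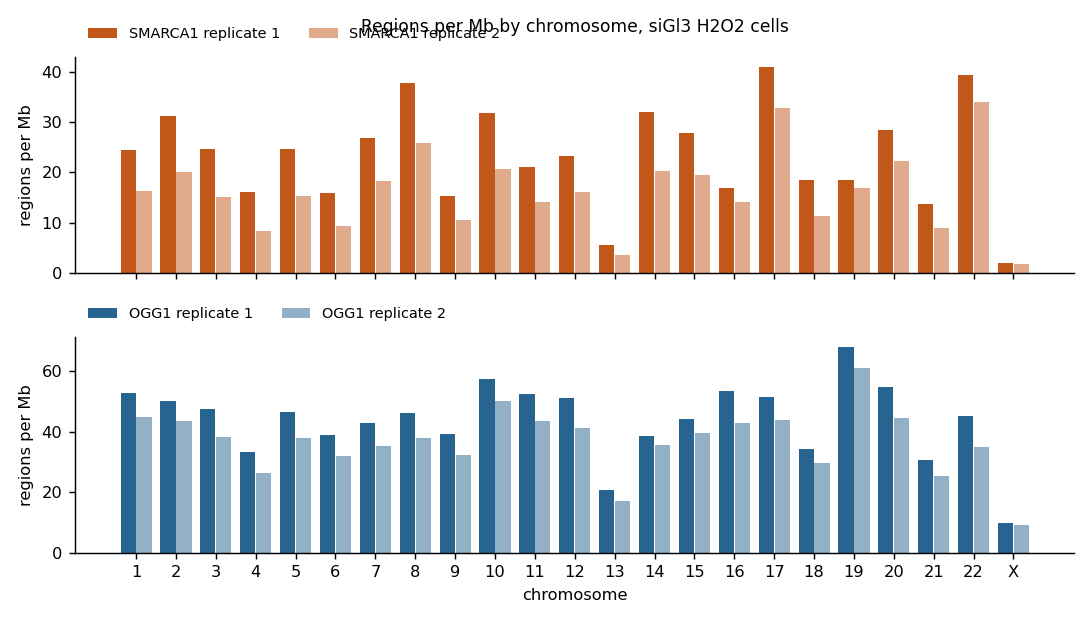
Regions per Mb on chromosomes 1 to 22 and X in siGl3 H2O2 cells, SMARCA1 above and OGG1 below, with replicate 1 in dark and replicate 2 in light bars. SMARCA1 is highest on chromosomes 17 and 22 and OGG1 on 19, and X is lowest in all 4 libraries.

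A larger share of SMARCA1 than of OGG1 summits lay at gene ends in H2O2-treated siGl3 cells, with 9.36% and 14.9% against 7.25% and 8.62%. The groups did not overlap, and OGG1 minus SMARCA1 was −4.21 percentage points (12.2 ± 3.95% against 7.94 ± 0.97%, SD, n = 2 each; exact permutation p = 0.333, the smallest possible). The sign depended on list length. When each list was reduced to its 47072 strongest regions by total signal, SMARCA1 had 11.1% and 14.9% and OGG1 13.9% and 15.4%, and the sign turned. Over the 4 conditions OGG1 was higher in 2 of 8 pairs (difference −5.97 percentage points, exact permutation p = 0.279, adjusted p = 0.279). Those 2 pairs were the non-treated siGl3 libraries, with 12.1% and 26.4% for SMARCA1 and 36.7% and 29.3% for OGG1. In gene bodies OGG1 was higher over the 4 conditions in 7 of 8 pairs (exact permutation p = 0.0201, adjusted p = 0.0234), and with the replicate block this no longer passed (p = 0.0547, adjusted p = 0.0638).

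**Figure D4:**
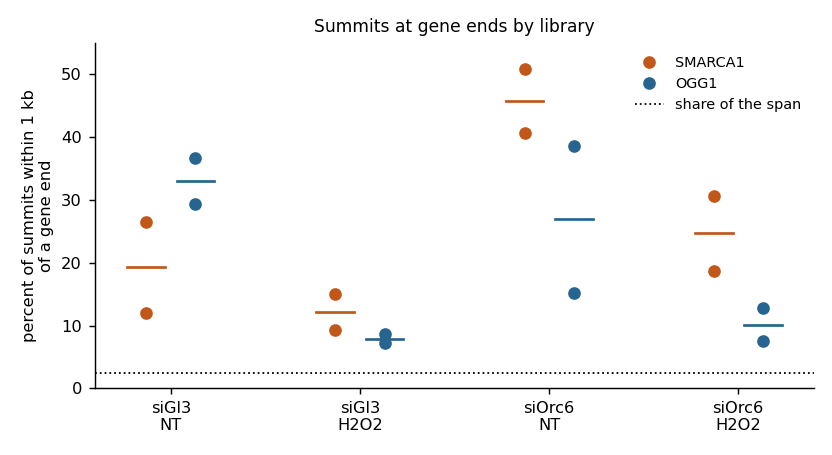
Percent of summits within 1 kb of an end of a protein-coding gene in each library of 4 cell conditions, points for libraries and short lines for the mean of 2; the dotted line is the 2.39% of the span in such windows. In siGl3 H2O2 cells SMARCA1 lies above OGG1, and in non-treated siGl3 cells below it.

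Of 19970 protein-coding genes, SMARCA1 occupied 40.7% and 44.6% and OGG1 81.1% and 82.1%. All 4 libraries occupied 6383 genes, 32.0% of those tested, and both OGG1 but no SMARCA1 library occupied 5227, or 26.2%. Both SMARCA1 and no OGG1 library occupied 2 genes, 0.01%, and 2980 genes (14.9%) had no region in any library. For a single gene the smallest two-sided p of Fisher's exact test on 2 libraries against 2 is 0.333, so 0 genes pass and 0 reach an unadjusted p under 0.05. In 6095 of the 6383 genes all 4 libraries met at the same end, and in 288 the antibodies met only by counting both ends. Counted as single ends, 6677 of 39940 (16.7%) had all 4 libraries, 13100 (32.8%) OGG1 alone and 9 (0.0225%) SMARCA1 alone. With 1 pair of libraries, SMARCA1-only genes numbered 81 in replicate 1 and 53 in replicate 2, and OGG1-only genes 8152 and 7552. The counts depended on the bases covered. When each list was cut to the bases of the smallest, 734 genes had all 4, 4233 SMARCA1 alone and 116 OGG1 alone.

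Genes with both antibodies mostly had both in Orc6-depleted cells under H2O2 too. SMARCA1 occupied more genes of any class in those cells, 65.7% and 72.1% against 40.7% and 44.6% in siGl3 H2O2 cells. Of the 6383 genes with both antibodies, 6118 (95.8%) had all 4 libraries there, against 61.5% of all genes. Of the 5227 OGG1-only genes, 684 (13.1%) were again OGG1-only, against 5.65% of all genes in that class there. Both antibodies were found at 2748 of them (52.6%), against 61.5% of all genes. Most OGG1-only genes thus changed class, but fewer of them had both antibodies there than of all genes. Orc6 in both siGl3 H2O2 replicates marked 90.9% of the genes with both antibodies and 24.2% of OGG1-only genes, against 48.2% of all. In non-treated siGl3 cells OGG1 was present in both replicates at 79.2% of the first class and 39.5% of the second, against 47.6% of all genes.

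Genes of base excision repair, the pathway that OGG1 opens, mostly carried both antibodies. Of 23 such genes 17 had all 4 libraries and 2 OGG1 alone, 73.9% and 8.70% against 32.0% and 26.2% of all genes. Percentiles below rank a gene's strongest region by total signal within its own list, where 100 is the strongest. OGG1 itself had all 4 libraries, at percentiles 75.8 and 95.02 for SMARCA1 and 97.1 and 98.8 for OGG1. APEX1, the endonuclease that cuts the abasic site after the glycosylase, stood at 92.5 and 95.8 for SMARCA1 and 99.2 and 96.1 for OGG1. FEN1, the flap nuclease, XRCC1, a scaffold, and POLB, the gap-filling polymerase, were in the same class. NEIL3, another glycosylase, and APTX, which clears abortive ligation products, had OGG1 alone, APTX at percentiles 99.6 and 98.0. OGG1 occupied all 23 genes in both replicates, against 78.4% of all genes, so within this list the classes differ by SMARCA1. It also occupied all 21 replication licensing genes, all 20 p53 targets and all 19 YAP and TEAD targets in both replicates.

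Other stress and damage lists had larger shares in the shared class than the 32.0% of all genes, from 50% to 75%. OGG1 alone was found at 26.2% of all genes. The NRF2 (23.1%) and peroxide detoxification (22.2%) shares lay near it, the p53 target (15%) and break repair (16%) shares lower. Of 20 p53 targets 15 had all 4 libraries, among them PPM1D, the phosphatase that acts on p53, at percentiles 99.96 and 99.8 for SMARCA1 and 99.9 and 99.8 for OGG1. CDKN1A, the cell-cycle inhibitor, stood at 75.2 and 75.2 for SMARCA1 and 97.9 and 96.6 for OGG1. MDM2, the p53 ligase, TP53INP1 and the death receptor gene FAS had OGG1 alone. Of 25 break repair genes 14 had both antibodies, ATM and BRCA1 among them, and 4 had OGG1 alone, BRCA2 among them. Of 26 NRF2 antioxidant genes 14 had both, with HMOX1, heme oxygenase, at 99.98 and 99.3 for SMARCA1 and 99.98 and 99.9 for OGG1. PRDX1, a peroxiredoxin, was also in this class, and TXN and SQSTM1 had OGG1 alone. Of 18 peroxide detoxification genes 9 had both, CAT and SOD1 among them, and 4 had OGG1 alone, SOD2 and GPX4 among them.

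Of 21 replication licensing genes 13 (61.9%) were in the shared class and 1, ORC1, had OGG1 alone, against 32.0% and 26.2% of all genes. CDC45, a part of the replicative helicase, had percentiles 99.8 and 98.6 for SMARCA1 and 99.9 and 99.96 for OGG1, and MCM5 97.2 and 99.8 against 99.98 and 99.9. HMOX1 and MCM5 are neighbours on chromosome 22. In this list the replicates differed for SMARCA1, which occupied 13 genes in replicate 1 and 20 in replicate 2. Of 20 immediate early genes 12 had both antibodies, led by MYC (99.9 and 99.99 for SMARCA1, 99.9 and 99.9 for OGG1), FOS (98.0 and 99.8, 99.6 and 99.7) and FOSL1 (98.7 and 99.0, 98.8 and 99.5). Ribosomal protein genes, cytosolic and mitochondrial, had both at 51 of 86 (59.3%) and 45 of 77 (58.4%), among them RPL36AL, RPL4, RPLP1 and RPS27L. RPS24 had OGG1 alone, at 98.6 and 99.2. Proteasome subunits followed with 21 of 39 (53.8%), and YAP and TEAD target genes with 10 of 19 (52.6%).

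Genes of the ISWI complexes were found in both classes. Of 14 found 6 (42.9%) had both antibodies, among them BAZ1B and BPTF, accessory subunits, and 2 (14.3%) had OGG1 alone, BAZ1A and CECR2. With so few genes these counts lie near the 32.0% and 26.2% of all genes. SMARCA5, the related ATPase, had OGG1 in both replicates and SMARCA1 in replicate 1. The SMARCA1 gene, on X, had no region at an end in any of the 4 libraries.

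Lists of genes tied to particular tissues lay below the 32.0% of all genes in the shared class. The mesenchymal and osteoblast list, which fits the origin of U2OS, had both antibodies at 6 of 28 genes (SPARC, COL1A1, VIM, FN1, MSX2 and SNAI2) and OGG1 alone at 9. SPARC, a bone matrix glycoprotein, stood at 98.7 and 99.7 for SMARCA1 and 99.6 and 99.6 for OGG1. Neuron genes had 4 and 7 of 20, hepatocyte genes 3 and 6, lymphoid and myeloid genes 3 and 10, and germline genes 0 and 8. OGG1 alone was found at 26.2% of all genes. The hepatocyte (30%) and mesenchymal and osteoblast (32.1%) shares lay near it, the neuron (35%), germline (40%) and lymphoid and myeloid (50%) shares further above. APOA2, a liver apolipoprotein gene, and LCK, a T-cell kinase gene, had OGG1 alone at percentiles 98.6 and 99.2, and 99.6 and 97.3. Of 44 collagens 10 had both and 17 OGG1 alone, with COL2A1 (99.0 and 98.8) and COL16A1 (98.6 and 98.5) among the latter. Region lists show occupancy, not expression, so the cell type could not be checked by its transcripts.

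Gene families in clusters ranged widely around the shares over all genes, 32.0% with both antibodies, 26.2% with OGG1 alone and 14.9% with no region. Of 392 olfactory receptors 5 had both antibodies, 28 had OGG1 alone and 325 (82.9%) had no region at all. OR4D1 was the strongest of the OGG1-only members, at 99.98 and 99.7. Of 149 keratins and keratin-associated proteins 82 (55.0%) had none and 36 (24.2%) OGG1 alone. Clustered protocadherins had both at 1 of 53, PCDHGC3, and here SMARCA1 replicates differed, with 2 genes in replicate 1 and 25 in replicate 2. Of 39 HOX genes 16 (41.0%) had both and 7 (17.9%) OGG1 alone, HOXC12 (98.5 and 99.8) and HOXB4 (96.8 and 99.8) among these. Zinc finger genes named ZNF, 509 in number, had both at 124 (24.4%) and OGG1 alone at 114 (22.4%). ZNF410 and ZNF217 led the first, and ZNF513, ZNF385A and ZNF205 the second. Replication-dependent histones had both at 26 of 69 (37.7%), near the share over all genes, and no region at 16 (23.2%). Members of these families share sequence, so reads can be split between copies, and neighbours share wide regions.

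**Figure D5:**
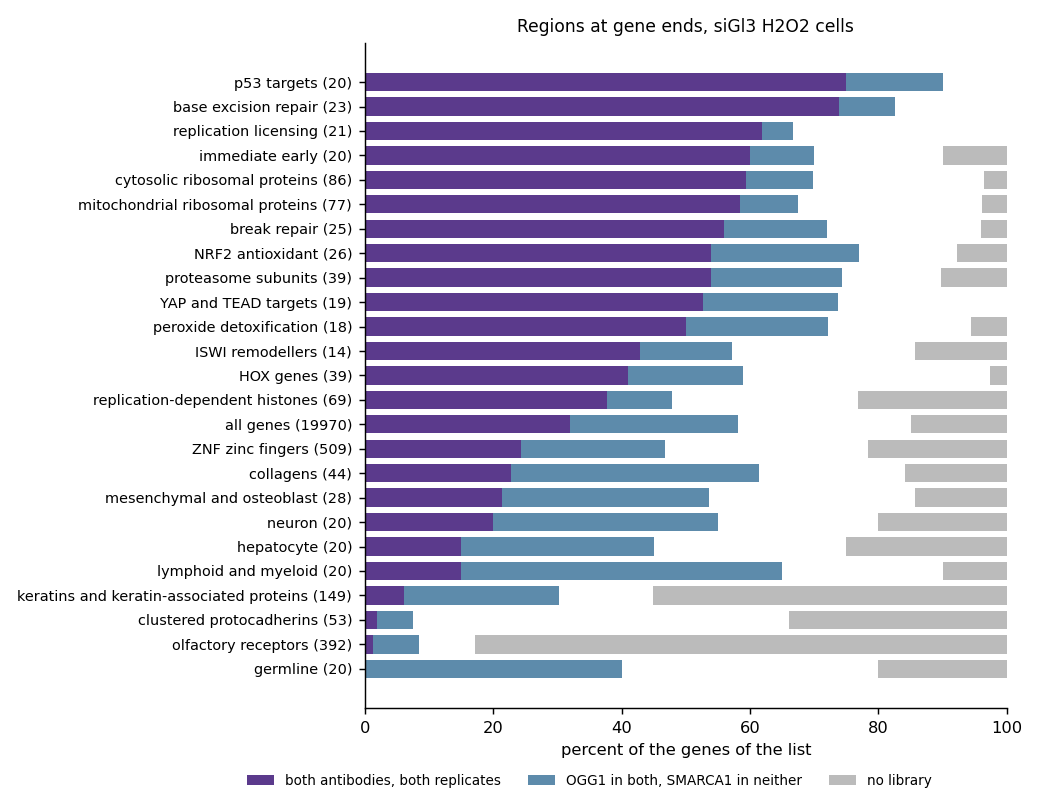
Percent of the genes of 24 lists and of all 19970 genes with a region at an end in all 4 libraries (purple), in both OGG1 and no SMARCA1 library (blue) and in no library (grey), with the number of genes in parentheses; white is every other pattern. The shared class runs from 75% of p53 targets to none of 20 germline genes, around 32.0% of all genes.

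Outside the lists, the strongest genes with both antibodies were TNRC18, ST3GAL1, ARC, TPM1, LFNG, CREB3, TLN1, ZBTB25, PTK2 and PTGR2. ARC encodes an activity-induced cytoskeletal protein, TLN1 talin and PTK2 focal adhesion kinase, both of cell adhesion. All 10 had mean percentiles that round to 99.9 or above. CREB3 and TLN1 are neighbours on chromosome 9, and ZNF410 and PTGR2 on chromosome 14, so each pair lies in the same stretch. The strongest genes with OGG1 alone at their ends were GRIFIN, SNX8, MICALL2, DGAT1, LOC124902050, HEATR4, SEPTIN4, LOC124901580, MAF1 and CD74. Their ranks come from the whole OGG1 region that touches an end, so SMARCA1 can lie elsewhere in it. MICALL2, GRIFIN with SNX8, HEATR4 and SEPTIN4 lay in windows among those richest in SMARCA1, described above. These held 123 and 148, 133 and 137, 190 and 121, and 143 and 121 SMARCA1 regions. DGAT1, LOC124902050, LOC124901580, MAF1 and CD74 lay outside the windows richest in SMARCA1. DGAT1 makes triglycerides, MAF1 represses RNA polymerase III, and CD74 is the invariant chain of antigen presentation. GRIFIN, SNX8, DGAT1, LOC124902050, HEATR4 and SEPTIN4 each had all 4 libraries in siOrc6 H2O2 cells, where 61.5% of all genes did. In non-treated siGl3 cells SEPTIN4 and MAF1, alone among these OGG1-only genes, had all 4 libraries.

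SMARCA1 without OGG1 was rare at genes. MSH3, a DNA mismatch repair gene, had percentiles 94.0 and 56.8 and no region of either antibody in siOrc6 H2O2 cells. PTCHD4, the other such gene, had 94.4 and 32.1 for SMARCA1, and Orc6 in both replicates. In siOrc6 H2O2 cells it had OGG1 in replicate 1 and no SMARCA1. A further 17 genes had SMARCA1 in both replicates and OGG1 in 1, among them the neighbours PTRH2, VMP1 and TUBD1 on chromosome 17. TUBD1 was at 99.99 and 99.3 for SMARCA1 and at 99.7 in OGG1 replicate 1, and its SMARCA1-only locus is the strongest of that class. In siOrc6 H2O2 cells TUBD1 had SMARCA1 in both replicates and OGG1 in neither.

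Other kinds of genes differed by class. Of 429 tRNA genes 29.6% had all 4 libraries and 17.9% OGG1 alone, against 32.0% and 26.2% of protein-coding genes. The end windows of a gene shorter than 2 kb overlap, so such a gene is nearer to a single end. Single ends of protein-coding genes had 16.7% and 32.8%, so these shares are not like for like. Long non-coding RNA genes, 18177 in number, had 14.8% and 26.1%, miRNA genes 8.01% and 32.3%, snoRNA genes 9.87% and 29.0%, and pseudogenes 2.96% and 24.8%. Across these kinds the shared class ran from 2.96% to 32.0% and the OGG1-only class from 17.9% to 32.3%.

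Promoter sequence was compared over 15811 of the 19970 genes, those with a RefSeq promoter of 300 bases (250 before and 50 after the start). Regions of all 4 libraries touched 3765 (23.8%), of OGG1 alone 4257 (26.9%), of SMARCA1 alone 2 (0.0126%) and of none 3110. The median number of CG dinucleotides was 26 in the shared class, 20 in the OGG1-only class, 7 in promoters without a region and 22 in all. The motif GGGCGG, read on both strands, occurred in 73.7% of shared, 59.4% of OGG1-only and 34.3% of empty promoters, against 58.5% of all. TATAAA, also on both strands, occurred in 5.37%, 7.56% and 20%, against 9.64% of all. GGGCGG itself contains a CG, so the first 2 measures overlap. From the lowest to the highest quintile of promoters by CG number, the share of OGG1-occupied promoters (both replicates) that also held both SMARCA1 libraries was 7.81%, 27.6%, 42.5%, 43.5% and 32.6%. It was thus highest at 18 to 33 CG dinucleotides and lower above.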

How the data were processed

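CUT&RUN libraries were made from 500000 cells after 1 min in 0.1% formaldehyde and read as 150-base pairs, per the labels' protocols. Bowtie2, SAMtools, SEACR 1.1, bedtools and the build hg38 are named, per the submitters' processing notes; parameters, and any control or scaling in calling, are not stated. The deposited region lists give, for each region, the authors' total signal and maximum signal, used only to rank regions within a list. Read depth is unknown, so no counting interval is given. Some siOrc6 SMARCA1 lists were deposited as resubmitted versions.

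Chromosomes 1 to 22 and X were kept. The maximum-signal stretch gave each summit. Regions overlapping by at least 1 bp were joined into loci. Gene ends (1 kb on each side) came from the RefSeq table of GRCh38.p14, which gives no strand; exons and introns were not separated. Groups were compared by exact two-sided permutation of library values (Python 3.11.15, numpy 2.4.6, scipy 1.17.1), with Benjamini-Hochberg adjustment over 7 measures. The labels give the replicate number as the batch, so equal numbers pair libraries. Overlap code was tested on simulated regions over 19970 genes and recovered 100% of 200 genes placed in each of 3 classes. Members, 24 gene lists and tests were chosen with earlier results of these data known. Named genes were, for each class, the 15 list members and 10 other genes with the highest mean percentile, plus the 5 strongest loci; SMARCA1-only genes, list genes named beyond these, windows, and the neighbours at MICALL2 and TUBD1 were chosen after their values were seen. No promoter of chromosome 8 was printed, and a result at 1 gene is not reported here. Alternatives were equal list length, equal covered bases, regions above the median maximum signal, 50% overlap, windows of 500 bp and 2 kb, crossed numbers, single replicates, the replicate block and, added after seeing the data, gene starts.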

Additional observations from a re-analysis of the deposited data

Results flagged for a closer look

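The share of summits at gene ends differed in direction between treatments of siGl3 cells. OGG1 minus SMARCA1 was −2.10 and −6.32 percentage points in the 2 H2O2 pairs and 24.6 and 2.89 in the 2 non-treated pairs. The difference of the means, −17.95 percentage points, did not pass the exact permutation of treatment within antibody (two-sided p = 0.278, adjusted p = 0.778, smallest possible p 0.0556). The H2O2 lists are longer, with 132025 and 110679 OGG1 regions against 17813 and 21204 without H2O2, and the part of list length in this difference was not tested between treatments.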

How the results depend on the processing

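Of 80 alternative values for 12 results, 51 kept their direction and side of the threshold or stayed within 1.5 times the count, 22 counts moved further, 5 reversed and 2 lost the threshold. With equal covered bases the number of regions turned to −5.97 (log2, OGG1 minus SMARCA1, exact permutation p = 0.333), the gene-end share to 22.6 percentage points, the share inside the other antibody to 57.8 and the gene-end share over 4 conditions to 2.13. Shared, SMARCA1-only and OGG1-only loci became 382, 13807 and 0, and genes 734, 4233 and 116. By construction this leaves 809 and 729 wide OGG1 regions. With equal length the gene-end share turned to 1.58, SMARCA1-only loci became 1250, OGG1-only loci 7810 and SMARCA1-only genes 53. Above the median maximum signal, with fewer regions in each list, the loci were 7566, 165 and 17331. The genes there were 4359 with both, 3 with SMARCA1 alone and 6126 with OGG1 alone. With a window of 500 bp 1 SMARCA1-only gene was left. Asking for 1 replicate only, shared loci were 23919 without replicate 1 and 31886 without replicate 2, SMARCA1-only loci 4957 and 10831, OGG1-only loci 86318 and 99373, SMARCA1-only genes 53 and 81, genes with both 8844 and 8048 and OGG1-only genes 7552 and 8152. The excess of OGG1 regions over 4 conditions was then 0.99 and 1.13 (log2), where p cannot fall below 0.125. The differences within siGl3 H2O2 cells kept their sign without either replicate, at 0.92 to 1.23 (log2) for region number, 698 to 725 Mb for covered bases, −6.32 to −2.10 for the gene-end share and −71.6 to −67.1 for the share inside the other antibody, and the gene-end share over 4 conditions was −11.27 and −0.67. With the replicate block the 4-condition region number gave p = 0.00781 (exact permutation) and the gene-end share p = 0.32; within siGl3 H2O2 cells p was 0.5, its smallest, and no call changed among these 6 results. Counted at gene starts alone, the gene-end share difference was −3.23, with 4717 genes with both, 3 with SMARCA1 alone and 4154 with OGG1 alone.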
